A study of Mus musculus and Bos taurus with 26 samples.

Results

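The 9 genes described here were Cdx2, Eomes, Tfap2c, Tead4, Elf5, Fgfr2, Krt8, Krt18 and Krt19, chosen by name as regulators, receptor and keratins of the trophectoderm, with earlier results of these data known. They were 9 of the 27988 genes in the mouse values and, under upper-case symbols, 9 of the 21577 in the bovine values. RNA came from whole embryos before any trophectoderm exists, so the name says where these genes are known to act and not which cells were sampled. Every group had 2 libraries, 22 libraries from mouse and 4 from cattle. Late 2-cell mouse embryos, 36 h after fertilization, had received at the zygote stage mRNA for mutant Hdac1, mRNA for WT Hdac1, mRNA for mutant Hdac2, mRNA for WT Hdac2, or water (H2O). Early 2-cell embryos, 24 h after fertilization, carried mutant or WT Hdac1 mRNA. Further late 2-cell embryos carried mutant Hdac1 mRNA and had both blastomeres injected again at the early 2-cell stage, with mRNA for Kdm5b, a histone H3 lysine 4 demethylase, or with H2O. Other late 2-cell embryos were cultured with 50 nM FK228, also called romidepsin, which blocks class I histone deacetylases, starting as zygotes, or in KSOM medium with the solvent DMSO. Bovine 8/16-cell embryos, 72 h after fertilization, likewise had 50 nM FK228 starting as zygotes, or BO-IVC medium with DMSO. The mutations are not given in the labels, strains and numbers of embryos are not given either, and the labels name no loss of the embryos' own Hdac1 or Hdac2.

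The trophectoderm is the outer epithelium of the blastocyst, which forms the placenta and pumps fluid into the cavity. In mouse, TEAD4, bound by its cofactor YAP in outer cells with low Hippo signalling, is needed to turn on CDX2, which in turn holds the trophectoderm fate. EOMES, TFAP2C and ELF5 maintain trophoblast stem cells with CDX2, and FGFR2 receives the FGF signal those cells need. Keratins pair a type II chain (KRT8) with a type I chain (KRT18 or KRT19), and these are the first filament proteins of that epithelium. Histone deacetylases 1 and 2 remove acetyl groups from histones and are generally linked to gene repression. The title of the series places the study in zygotic genome activation, when the embryo begins to transcribe its own genes.

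Among these genes, Krt8 and Krt18 are neighbours, and the sequences before both are shown with those of Cdx2 and Eomes because they were among the members that rose after mutant Hdac1, mutant Hdac2 and FK228 at the late 2-cell stage. On GRCm38 with the GENCODE M21 annotation, Krt8 lies on the minus strand at chr15:101996698-102004482 and Krt18 on the plus strand at chr15:102028180-102032027, with 23697 bases between them. Cdx2 lies at chr5:147300805-147307270 (minus) and Eomes at chr9:118478212-118486132 (plus). The other members lie at chr2:172549593-172558622 (Tfap2c, plus), chr6:128224288-128300823 (Tead4, minus), chr2:103411688-103450989 (Elf5, plus), chr7:130162451-133123350 (Fgfr2, minus) and chr11:100140810-100148665 (Krt19, minus), and all 9 are annotated as protein coding. RefSeq (GRCm38.p6) gave promoter sequence for 6 members, and the 250 bases before the RefSeq start are printed on the strand of the gene. RefSeq and GENCODE place some starts differently, so that the windows of Cdx2, Krt8 and Krt18 reach into the gene as GENCODE draws it, and the Cdx2 motif lies in that overlap. They span chr5:147307250-147307499 (Cdx2, minus), chr9:118477939-118478188 (Eomes, plus), chr15:102004343-102004592 (Krt8, minus) and chr15:102027966-102028215 (Krt18, plus). Capitals mark the AP-2 motif GCCNNNGGC, the family motif of TFAP2C.
Cdx2: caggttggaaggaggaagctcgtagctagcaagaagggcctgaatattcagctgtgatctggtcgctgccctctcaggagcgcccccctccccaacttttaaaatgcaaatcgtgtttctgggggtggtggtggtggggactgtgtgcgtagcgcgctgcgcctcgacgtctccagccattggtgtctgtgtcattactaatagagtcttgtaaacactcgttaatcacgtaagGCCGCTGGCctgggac
Eomes: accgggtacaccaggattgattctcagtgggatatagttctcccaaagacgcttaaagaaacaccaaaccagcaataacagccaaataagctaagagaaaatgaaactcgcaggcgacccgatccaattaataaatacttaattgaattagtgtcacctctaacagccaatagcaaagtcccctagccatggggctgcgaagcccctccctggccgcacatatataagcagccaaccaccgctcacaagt
Krt8: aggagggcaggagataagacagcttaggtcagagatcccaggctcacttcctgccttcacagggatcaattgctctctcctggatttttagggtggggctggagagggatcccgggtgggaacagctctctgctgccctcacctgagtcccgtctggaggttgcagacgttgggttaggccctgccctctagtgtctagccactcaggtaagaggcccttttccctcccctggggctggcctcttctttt
Krt18: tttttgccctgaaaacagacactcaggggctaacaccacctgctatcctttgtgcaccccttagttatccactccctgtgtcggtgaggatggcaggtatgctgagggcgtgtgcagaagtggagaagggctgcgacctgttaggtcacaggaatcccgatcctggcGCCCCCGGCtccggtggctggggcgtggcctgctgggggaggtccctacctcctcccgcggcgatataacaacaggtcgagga
The motif was searched on both strands, where it reads the same. It stood 16 bases before the RefSeq start of Cdx2 and 83 bases before that of Krt18, and 13.7% of 32851 RefSeq promoters of the same length hold it. The GC box GGGCGG (32.7% of promoters), the TEAD motif GGAATG (12.6%) and the TATA box TATAAA (12.4%), each searched with its reverse complement, had no match in these 4 windows, which says only that those letters are not there. Fgfr2, which rose as well, has a window that is not printed and that held neither the AP-2 motif nor any of these. An Elf5 window, also not printed, held the TEAD motif 173 bases before its RefSeq start. CpG dinucleotides numbered 13 before Cdx2, 12 before Krt18, 8 before Eomes and 3 before Krt8, against a median of 6 over all promoters. The neighbouring keratins thus differed in this window, with 60.4% G and C and 12 CpG before Krt18 and 58.0% and 3 before Krt8.

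Reads of Krt8 and Krt18 may be shared with copies of these genes. In the annotation, 51.8% of the Krt8 transcript is matched at 90% identity or more by other genes, the longest match being Krt8-ps (98.6% identity over 941 bases), and 88.1% of the Krt18 transcript is matched by the processed pseudogene Gm5200 (90.5% over 1267 bases). None of these copies has a row among the mouse values, so the values of Krt8 and Krt18 are uncertain to that extent. On the opposite strand Eomes overlaps the antisense gene Gm33460, Krt8 the lincRNA gene Gm36026 and Tead4 the processed pseudogene Gm21893, and no strand-marking step is described, so reads of these pairs cannot be told apart.

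Mouse libraries each held 10704 to 14554 genes at 1 FPKM (fragments per kilobase of transcript, scaled to the library's total fragments) or more, and bovine ones 11598 to 12141. Absolute depth is unknown, and relative depth ran from 0.682 to 1.31 of the median library in mouse and from 0.914 to 1.07 in cattle, as a rough estimate. Hdac1 stood at 805 to 7253 FPKM in the 12 libraries labelled with its mRNA, against 47.7 to 92.2 FPKM in the other 10 mouse libraries. Hdac2 stood at 1462 to 2443 FPKM in its 4 libraries and at 16.3 to 72.7 FPKM in the other 18, and Kdm5b at 594 and 638 FPKM against 1.58 to 143 FPKM. Markers of the oocyte and early embryo were all above 0 in every library, with summed levels of 140 to 186 FPKM in the 10 late libraries with mutant Hdac1, mutant Hdac2 or FK228, 125 to 218 FPKM in the other 8 late libraries and 1002 to 1211 FPKM in the 4 early ones. The 6 markers of the 2-cell stage, also above 0 everywhere, summed to 349 to 477 FPKM in those 10 late libraries and to 151 to 246 FPKM in the other 8. At the early stage they summed to 80.4 and 114 FPKM in Hdac1 mutant embryos and to 176 and 179 FPKM in Hdac1 WT embryos. Of markers of other cells, 8 blood markers summed to 89.3 to 186 FPKM in the 10 perturbed late libraries and to 3.16 to 15.4 FPKM in the other 8 late ones. The alpha globins Hba-a1 and Hba-a2 and the invariant chain gene Cd74 held most of that sum, while the beta globins Hbb-bs and Hbb-bt were at 0 in 9 of the 10 and at most 0.332 FPKM, and the leukocyte gene Ptprc was at most 0.394 FPKM. The 11 cumulus and granulosa markers with a row summed to 5.90 to 22.6 FPKM in the same 10 libraries and to 0.477 to 7.38 FPKM in the other 8, with Foxl2 at 2.42 to 16.8 FPKM and the FSH receptor gene Fshr at 0 in 9 of the 10. In the 4 early libraries these 11 markers summed to 5.64 to 12.1 FPKM. The 6 sperm markers summed to 1.40 to 8.45 FPKM in the 10 and to at most 1.89 FPKM in the 8. The part of such cells in the results was not tested. In whole embryos, fewer cells with a transcript and less of it per cell cannot be told apart.

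In late 2-cell mouse embryos, 6 of the 9 genes, Cdx2, Eomes, Fgfr2, Krt8, Krt18 and Krt19, were higher after mutant Hdac1, after mutant Hdac2 and after FK228, each against its own control. Tead4 was lower in all 3 comparisons, Tfap2c passed the test in none, and Elf5 was too low to be tested. A call here means an adjusted p under 0.05 in limma on log2(FPKM + 1), over the 17336 mouse genes with at least 1 FPKM in at least 2 libraries, a filter that 8 of the 9 members passed. Nothing in the labels says that the 2 libraries of a group came from separate cultures, so the p-values rest on a spread between libraries that may be technical. Calls were common among all genes, and the counts of members are read against that. With mutant Hdac1, 6 members were higher and 1 lower, while 30.5% of all genes tested were higher and 21.6% lower. With mutant Hdac2 the counts were again 6 and 1, against 30.8% higher and 22.2% lower, and with FK228 6 and 1, against 31.0% higher and 26.3% lower. Groups that did not overlap were common too. With mutant Hdac1, 6 of the 8 tested members lay above and 2 below WT without overlap, against 39.3% and 27.4% of all genes. With mutant Hdac2 these were 6 and 2, against 43.5% and 32.0%, and with FK228 6 and 1, against 44.4% and 34.9%. Called higher in all 3 comparisons were 21.1% of the genes tested, and lower in all 3 were 17.4%. The median log2 fold change of the 8 tested members was 3.22, 3.16 and 2.50 with mutant Hdac1, mutant Hdac2 and FK228, against 0.17, 0.14 and 0.15 over all genes tested. Quantile normalization put those medians of all genes at -0.06, -0.05 and -0.04, median-ratio scaling put that of FK228 at 0.25, and quantile normalization lowered the share of calls that were higher with mutant Hdac1 to 48.0% of calls, against 58.5% here. A gene that is near 0 in controls passes the filter through the groups where it is high, as Krt19 did. The members were also chosen with earlier results of these data known, so these counts and medians are descriptions.

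**Figure D1:**
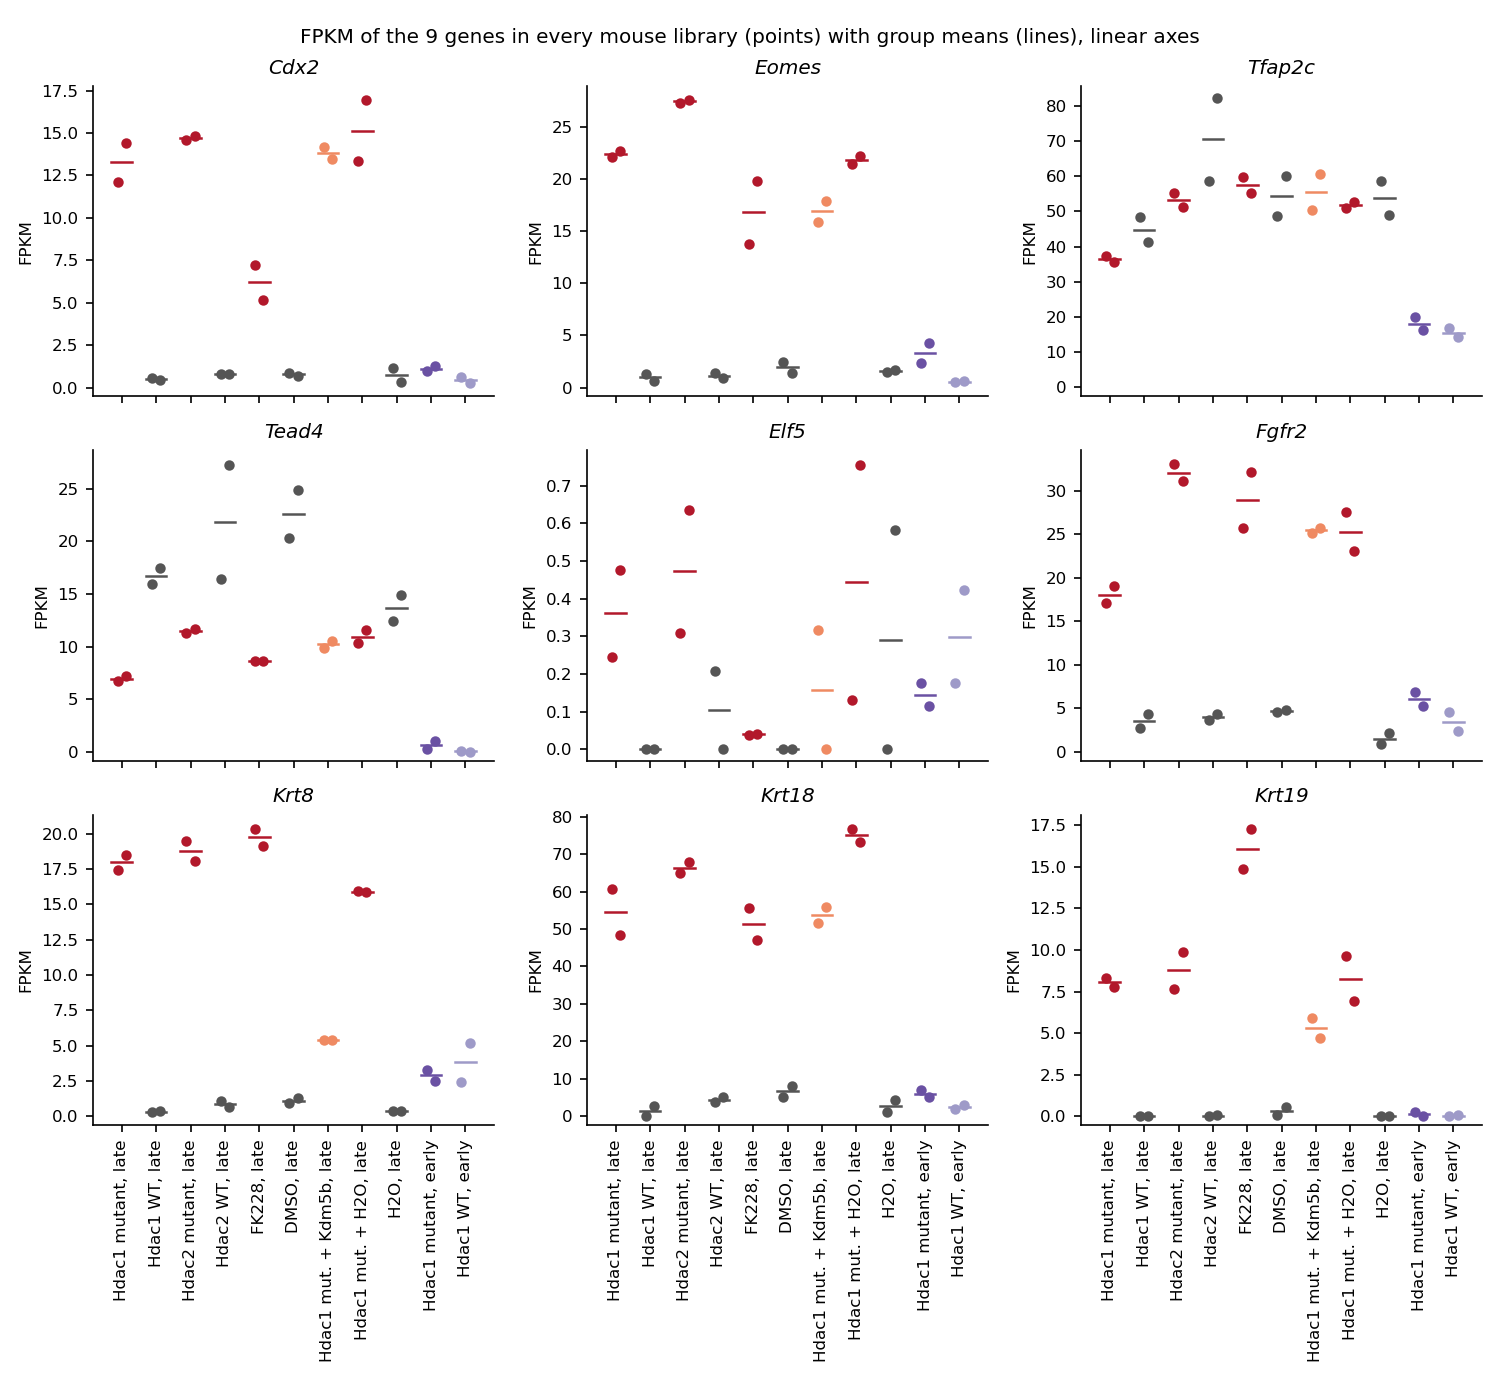
FPKM (linear y axes) of the 9 genes in each of 22 mouse libraries (points, 2 a group) with group means (lines), by group on the x axis. Cdx2, Eomes, Fgfr2 and the keratins are high in the late groups with mutant Hdac1, mutant Hdac2 or FK228, Tead4 is high in the late control groups, and Elf5 stays under 1 FPKM.

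Cdx2 encodes the caudal-type homeobox factor that holds the trophectoderm fate in mouse. Its level was 12.1 and 14.4 FPKM in Hdac1 mutant late embryos, against 0.552 and 0.424 FPKM in Hdac1 WT late embryos. With mutant Hdac2 it was 14.6 and 14.8 FPKM, against 0.796 and 0.818 FPKM with WT Hdac2. In FK228 it was 7.25 and 5.17 FPKM, against 0.874 and 0.684 FPKM in DMSO. The groups did not overlap in any of the 3 comparisons, and both FK228 libraries lay below every library with mutant Hdac1 or Hdac2 at the late stage. On the log2(FPKM + 1) scale, which understates the change of low genes, Cdx2 rose by 3.26 ± 0.23 (SE) with mutant Hdac1 (adjusted p = 2.87e-08), by 3.12 ± 0.23 with mutant Hdac2 (adjusted p = 3.41e-08) and by 2.01 ± 0.23 with FK228 (adjusted p = 2.16e-06).

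Eomes, a T-box factor of the trophoblast that also acts later in mesoderm and lymphocytes, was at 22.1 and 22.7 FPKM in Hdac1 mutant late embryos and at 1.30 and 0.674 FPKM in Hdac1 WT late embryos. It was at 27.4 and 27.6 FPKM with mutant Hdac2, against 1.37 and 0.895 FPKM with WT Hdac2, and at 13.8 and 19.9 FPKM in FK228, against 2.47 and 1.39 FPKM in DMSO. No control library came near a perturbed one. The log2 fold changes were 3.58 ± 0.24 (adjusted p = 2.11e-08), 3.75 ± 0.24 (adjusted p = 1.07e-08) and 2.61 ± 0.24 (adjusted p = 2.35e-07) for mutant Hdac1, mutant Hdac2 and FK228.

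Tead4, the TEA-domain factor that lies upstream of Cdx2 in mouse, went the other way. It was at 6.75 and 7.19 FPKM in Hdac1 mutant late embryos, against 16.0 and 17.5 FPKM in Hdac1 WT late embryos, and at 8.60 and 8.66 FPKM in FK228, against 20.3 and 24.9 FPKM in DMSO. With mutant Hdac2 it was at 11.3 and 11.6 FPKM, against 16.5 and 27.3 FPKM with WT Hdac2, whose libraries lay far apart. All 10 perturbed late libraries, at 6.75 to 11.6 FPKM, lay below the 8 other late libraries, at 12.5 to 27.3 FPKM. Tead4 fell with mutant Hdac1 (log2 fold change -1.15 ± 0.23, adjusted p = 0.000486) and with FK228 (-1.29 ± 0.23, adjusted p = 0.00015). Its fall with mutant Hdac2 was smaller (-0.84 ± 0.23, adjusted p = 0.00542). That call was lost without replicate 2 of Hdac2 WT (-0.49, adjusted p = 0.113), with a pseudocount of 0.1 (-0.88, adjusted p = 0.0548) and with only the 2 groups fitted (-0.84, adjusted p = 0.0690).

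Tfap2c, which encodes AP-2 gamma, was the most abundant member in unperturbed late embryos and passed the test in none of the 3 comparisons. It was at 37.2 and 35.6 FPKM with mutant Hdac1, against 48.3 and 41.4 FPKM with WT Hdac1. With mutant Hdac2 it was at 55.2 and 51.3 FPKM, against 58.6 and 82.2 FPKM with WT Hdac2, and in FK228 at 59.8 and 55.2 FPKM, against 48.6 and 60.0 FPKM in DMSO. The FK228 and DMSO libraries overlapped, and both libraries with mutant Hdac1 or Hdac2 lay below their WT controls. The log2 fold changes were -0.29 ± 0.17 (adjusted p = 0.176), -0.38 ± 0.17 (adjusted p = 0.0783) and 0.09 ± 0.17 (adjusted p = 0.698). Quantile normalization called Tfap2c higher in FK228 (0.75, adjusted p = 0.000465), and without replicate 1 of Hdac2 WT it was called lower with mutant Hdac2 (-0.62, adjusted p = 0.0136).

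Elf5, an ETS factor of the trophoblast that in mouse is known to be silenced by DNA methylation outside it, did not reach 1 FPKM in any library. Its highest mouse value was 0.756 FPKM, it was listed at 0 in 6 of the 8 unperturbed late libraries, and its median was 0.278 FPKM in the 10 perturbed late libraries. At this level no difference was tested.

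Fgfr2, the FGF receptor of the trophectoderm, was at 17.1 and 19.0 FPKM in Hdac1 mutant late embryos, against 2.73 and 4.41 FPKM in Hdac1 WT late embryos. With mutant Hdac2 it was at 33.0 and 31.2 FPKM, against 3.67 and 4.42 FPKM with WT Hdac2, and in FK228 at 25.8 and 32.2 FPKM, against 4.61 and 4.86 FPKM in DMSO. The groups stood apart in all 3 comparisons. Fgfr2 rose by 2.08 ± 0.26 (adjusted p = 7.33e-06), 2.72 ± 0.26 (adjusted p = 4.4e-07) and 2.38 ± 0.26 (adjusted p = 1.34e-06) on the log2 scale with mutant Hdac1, mutant Hdac2 and FK228. The annotated Fgfr2 gene spans many other genes, Ate1 and Tacc2 among them, and how reads in that overlap were assigned is not given in the sources used here.

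The keratins were low in late controls and rose in all 3 comparisons. Krt8, the type II chain, was at 17.4 and 18.5 FPKM in Hdac1 mutant late embryos, against 0.299 and 0.363 FPKM in Hdac1 WT late embryos. It was at 19.5 and 18.1 FPKM with mutant Hdac2, against 1.06 and 0.689 FPKM with WT Hdac2, and at 20.3 and 19.1 FPKM in FK228, against 0.967 and 1.28 FPKM in DMSO. The 3 perturbed groups lay within 3 FPKM of each other, far above every control library. The log2 fold changes were 3.83 ± 0.22 (adjusted p = 5.56e-09), 3.41 ± 0.22 (adjusted p = 1.07e-08) and 3.29 ± 0.22 (adjusted p = 8.75e-09).

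Krt18, the type I partner of KRT8, was the most abundant of the 3 keratins in every late perturbed library, at 60.7 and 48.5 FPKM in Hdac1 mutant late embryos and 0.163 and 2.66 FPKM in Hdac1 WT late embryos. With mutant Hdac2 it was at 64.9 and 67.8 FPKM, against 3.72 and 5.29 FPKM with WT Hdac2, and in FK228 at 55.6 and 47.0 FPKM, against 5.21 and 8.23 FPKM in DMSO. All perturbed libraries were above all controls, although the controls differed among themselves, most of all the Hdac1 WT pair. It rose by 4.74 ± 0.44 (adjusted p = 3.51e-07), 3.63 ± 0.44 (adjusted p = 4.61e-06) and 2.78 ± 0.44 (adjusted p = 5.48e-05) on the log2 scale. The value for mutant Hdac1 was 3.92 without replicate 1 of Hdac1 WT and 5.57 without replicate 2.

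Krt19, the other type I chain, was listed at 0 in both Hdac1 WT late libraries and stood at 8.33 and 7.79 FPKM with mutant Hdac1, so no fold is given. It reached 1 FPKM only in the late perturbed groups and passed the filter through them, so its values against the controls are given without a p. It was at 7.67 and 9.90 FPKM with mutant Hdac2, against 0 and 0.107 FPKM with WT Hdac2. In FK228 it was at 14.8 and 17.2 FPKM, against 0.107 and 0.539 FPKM in DMSO. Its FK228 libraries were higher than those of any other mouse group, without overlap. Krt19 made up 21.1% and 26.9% of the summed type I FPKM (Krt18 plus Krt19) in FK228, against 2.02% and 6.14% in DMSO, while the shares were 12.1% and 13.9% with mutant Hdac1 and 10.6% and 12.7% with mutant Hdac2.

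**Figure D2:**
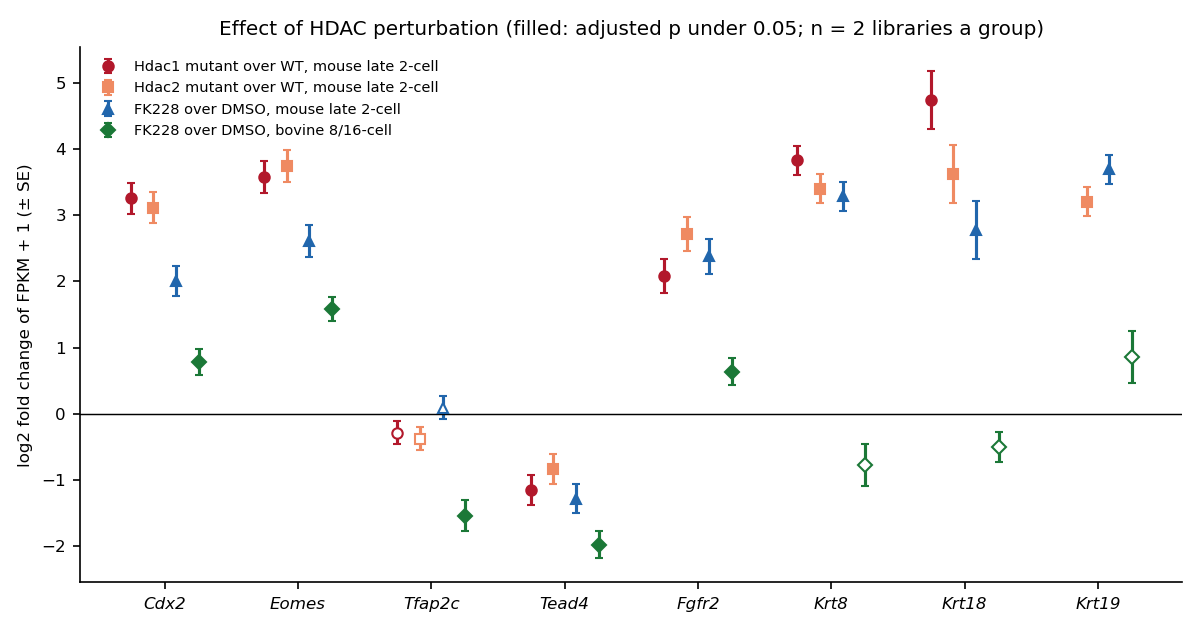
Log2 fold change of FPKM + 1 (y axis, ± SE) of the 8 tested genes in 4 comparisons with 2 libraries a group, filled where the adjusted p was under 0.05. In mouse all 3 perturbations put Cdx2, Eomes, Fgfr2 and the keratins above 0 and Tead4 below, whereas in cattle the keratins have open symbols. Krt19 with mutant Hdac1 is left out because its control was listed at 0. The other mouse Krt19 symbols are of a gene that passed the filter only through late perturbed groups. In cattle FGFR2 passed the filter only through FK228 and TEAD4 only through DMSO.

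The effects of mutant Hdac1 and mutant Hdac2 on these genes did not pass a test of their difference. In this direct test of the difference in limma, 0 of the 8 members were called and 0 had an unadjusted p under 0.05, while 0.0404% of all genes tested were called higher and 0.0635% lower, and 1658 genes had an unadjusted p under 0.05. The differences ran from -0.64 ± 0.37 for Fgfr2 to 1.12 ± 0.62 for Krt18 on the log2 scale, and with errors of that size the test does not show that the 2 mutants act alike. Between mutant Hdac1 and FK228, 1 member was called, against 4.76% of all genes higher and 2.2% lower. Cdx2 rose more with mutant Hdac1, by 1.25 ± 0.33 on the log2 scale (adjusted p = 0.0319). That call was lost without any of 6 of the 8 libraries concerned (1.04 to 1.33, adjusted p 0.0528 to 0.129), with a pseudocount of 0.1 (adjusted p = 0.126) and with only the 4 groups fitted (adjusted p = 0.124). Krt18, with a difference of 1.96 ± 0.62, had an adjusted p of 0.07, and was called without replicate 2 of Hdac1 WT (2.79, adjusted p = 0.00911). The split of all calls between higher and lower moved to 49.4% higher with median ratios and 52.9% with quantiles, against 68.4% here.

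At the early 2-cell stage, 12 h before the late one, Eomes alone of the members was higher with mutant Hdac1. It was at 2.38 and 4.25 FPKM in Hdac1 mutant early embryos and at 0.508 and 0.615 FPKM in Hdac1 WT early embryos, with no overlap and a difference on the log2 scale of 1.43 ± 0.24 (adjusted p = 0.0122). So 1 of 8 members was higher and 0 were lower in limma, against 0.231% and 0.329% of all genes tested, and 5 members had an unadjusted p under 0.05, as did 1057 of the 17336 genes tested. The Eomes call was lost without replicate 2 of the mutant (1.12, adjusted p = 0.116) or either WT library (1.38 and 1.48, adjusted p = 0.114 and 0.0983), and with only the 2 groups fitted (adjusted p = 0.440). Cdx2 was at 0.965 and 1.24 FPKM in mutant and 0.613 and 0.250 FPKM in WT early embryos (0.56 ± 0.23, adjusted p = 0.632). Krt8 overlapped between the groups, at 3.30 and 2.53 FPKM in mutant and 2.45 and 5.17 FPKM in WT early embryos. Tead4 was near 0, at 0.292 and 1.04 FPKM in mutant and 0.0879 and 0.0447 FPKM in WT early embryos, and was called higher only with a pseudocount of 0.1 (2.02, adjusted p = 0.0104). Among all genes, 41.2% of the few calls were higher, and 51.7% under quantile normalization.

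In Hdac1 WT embryos the late stage differed from the early one in 3 members. Tead4 stood at 16.0 and 17.5 FPKM late and 0.0879 and 0.0447 FPKM early (log2 fold change 4.05 ± 0.23, adjusted p = 5.24e-10). Tfap2c was at 48.3 and 41.4 FPKM late and 16.8 and 14.2 FPKM early (1.48 ± 0.17, adjusted p = 2.04e-06). Krt8 went down, to 0.299 and 0.363 FPKM late against 2.45 and 5.17 FPKM early (-1.79 ± 0.22, adjusted p = 3.91e-06). These were 2 members higher and 1 lower, against 28.8% and 28.1% of all genes. The cumulus and granulosa markers fell as well, with sums of 0.477 and 1.59 FPKM in Hdac1 WT late libraries and 9.33 and 12.1 FPKM in Hdac1 WT early ones. The part of such cells in the Krt8 result was not tested. Cdx2, Eomes, Fgfr2, Krt18 and Krt19 passed no test across this step, with log2 fold changes from -0.73 (Krt18) to 0.33 (Eomes). Without replicate 2 of the late WT embryos Krt18 was called lower (-1.56, adjusted p = 0.00422), and without replicate 1 its value was 0.09.

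In Hdac1 mutant embryos all 8 tested members were called higher at the late than at the early stage, against 40.6% of all genes, with 25.8% lower. The log2 fold changes ran from 0.97 ± 0.17 for Tfap2c (adjusted p = 0.000135) to 2.98 ± 0.44 for Krt18 (adjusted p = 2.32e-05), leaving aside Krt19, which passed the filter only through late perturbed groups. Tead4 was among them, at 6.75 and 7.19 FPKM late and 0.292 and 1.04 FPKM early (2.30 ± 0.23, adjusted p = 3.32e-07). Krt8 went up in mutant embryos, at 17.4 and 18.5 FPKM late and 3.30 and 2.53 FPKM early (2.28 ± 0.22, adjusted p = 2.94e-07), opposite to WT. Of all calls in mutant embryos 61.1% were higher, and 47.6% under quantile normalization, which moved the median of all genes to -0.02 from 0.37 on the log2 scale.

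The change of the mutant Hdac1 effect with stage was tested directly. It was larger at the late stage for 6 members and lower for Tead4, against 21.2% and 15.2% of all genes. Krt19 is 1 of the 6 and passed the filter only through late perturbed groups, so its part in this count is a description. The difference was 4.08 ± 0.31 for Krt8 (adjusted p = 1.01e-06), 3.71 ± 0.62 for Krt18 (adjusted p = 0.00027), 2.70 ± 0.33 for Cdx2 (adjusted p = 1.92e-05) and 2.15 ± 0.35 for Eomes (adjusted p = 0.000199) on the log2 scale. For Tead4 it was -1.76 ± 0.32 (adjusted p = 0.000518), and Tfap2c was not called (-0.50 ± 0.24, adjusted p = 0.125). For Fgfr2 it was 1.39 ± 0.37 (adjusted p = 0.00804), a call lost with only these 4 groups fitted (adjusted p = 0.0587). The blood markers moved with stage and mutant too, with sums of 118 and 103 FPKM in Hdac1 mutant late embryos, 5.42 and 3.16 FPKM in Hdac1 WT late embryos, 7.67 and 10.5 FPKM in mutant early embryos and 2.39 and 1.46 FPKM in WT early embryos, and their part in the result was not tested.

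Few members differed between embryos with WT mRNA and those with water. Comparing Hdac1 WT with H2O late embryos, limma called 0 of 8 members higher and 0 lower, with 1 member (Fgfr2) at an unadjusted p under 0.05, while 0.352% and 1.83% of all genes were called and 2739 genes had an unadjusted p under 0.05. Fgfr2 was at 2.73 and 4.41 FPKM in Hdac1 WT embryos and at 0.883 and 2.14 FPKM in H2O embryos (0.89 ± 0.26, adjusted p = 0.0972), and was called without replicate 2 of H2O (1.26, adjusted p = 0.0366). Krt18 was called lower without replicate 2 of Hdac1 WT (-1.60, adjusted p = 0.0395). Hdac2 WT embryos differed from H2O embryos in Fgfr2, at 3.67 and 4.42 FPKM against the same H2O values (1.05 ± 0.26, adjusted p = 0.0197). That was 1 member higher, against 6.59% of all genes higher and 2.86% lower. The call was lost without replicate 1 of H2O (0.68, adjusted p = 0.201), without either Hdac2 WT library (1.15 and 0.94, adjusted p = 0.0531 and 0.131) and with only the 2 groups fitted (adjusted p = 0.307). Over all genes, 16.1% of the calls for Hdac1 WT were higher, against 28.7% with median ratios and 34.0% with quantiles. For Hdac2 WT 69.8% of calls were higher, against 57.2% under median-ratio scaling.

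Embryos given mutant Hdac1 mRNA and then H2O were compared with embryos given H2O once, which are also the controls of the WT comparisons above. Cdx2, Eomes, Fgfr2 and the 3 keratins were higher and 0 members lower in limma, against 34.5% and 18.1% of all genes, and these 6 were also the members that lay above H2O without overlap (46.5% of all genes did, and 26.6% lay below) and those with an unadjusted p under 0.05, as 9910 of the 17336 genes tested had. Krt19 passed the filter only through late perturbed groups, so its part in these counts is a description. Cdx2 was at 13.3 and 16.9 FPKM after mutant Hdac1 and H2O, against 1.13 and 0.335 FPKM in H2O embryos (3.25 ± 0.23, adjusted p = 2.98e-08). Eomes was at 21.4 and 22.2 FPKM against 1.53 and 1.69 FPKM (3.13 ± 0.24, adjusted p = 7.24e-08), and Fgfr2 at 27.5 and 23.1 FPKM against 0.883 and 2.14 FPKM (3.43 ± 0.26, adjusted p = 5.84e-08). Both stood apart from the H2O embryos. Krt8 was at 15.9 and 15.9 FPKM against 0.413 and 0.386 FPKM (3.59 ± 0.22), Krt18 at 76.6 and 73.3 FPKM against 1.25 and 4.51 FPKM (4.43 ± 0.44), and Krt19 at 9.64 and 6.92 FPKM where H2O embryos were listed at 0. Tead4, at 10.3 and 11.6 FPKM against 12.5 and 14.9 FPKM, did not overlap but was not called (-0.29 ± 0.23, adjusted p = 0.296). Of all calls 65.5% were higher, and 47.7% under quantile normalization, while the median of all genes was 0.25 here, 0.10 with median ratios and -0.09 with quantiles.

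Of these genes only Krt8 was called when Kdm5b mRNA was in the second injection, and it was lower. Krt8 was at 5.37 and 5.38 FPKM after mutant Hdac1 and Kdm5b, against 15.9 and 15.9 FPKM after mutant Hdac1 and H2O (-1.41 ± 0.22, adjusted p = 0.0132). It was 1 member lower and 0 higher, against 0.629% and 0.415% of all genes, and 2 members (Krt8 and Krt19) had an unadjusted p under 0.05, as did 2586 of the 17336 genes tested. The call was lost without 3 of the 4 libraries (adjusted p 0.0795 to 0.137), with a pseudocount of 0.1 (adjusted p = 0.0768) and with only the 2 groups fitted (adjusted p = 0.247), while the log2 fold change stayed between -1.55 and -1.40. Krt18 was at 51.6 and 56.0 FPKM against 76.6 and 73.3 FPKM (-0.47 ± 0.44, adjusted p = 0.677), and Krt19 at 5.91 and 4.69 FPKM against 9.64 and 6.92 FPKM (-0.55 ± 0.22, adjusted p = 0.242). Neither pair overlapped, and 25.7% of all genes lay lower with Kdm5b without overlap, and 23.0% higher. Cdx2, Tfap2c, Tead4 and Fgfr2 overlapped between these groups, and Eomes was at 15.9 and 17.9 FPKM with Kdm5b, against 21.4 and 22.2 FPKM without it (-0.35 ± 0.24, adjusted p = 0.55). The blood markers summed to 98.0 and 89.3 FPKM with Kdm5b, against 132 and 144 FPKM with H2O, and their part in the result was not tested. Of the few calls over all genes 39.8% were higher, and 23.8% under median-ratio scaling.

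**Figure D3:**
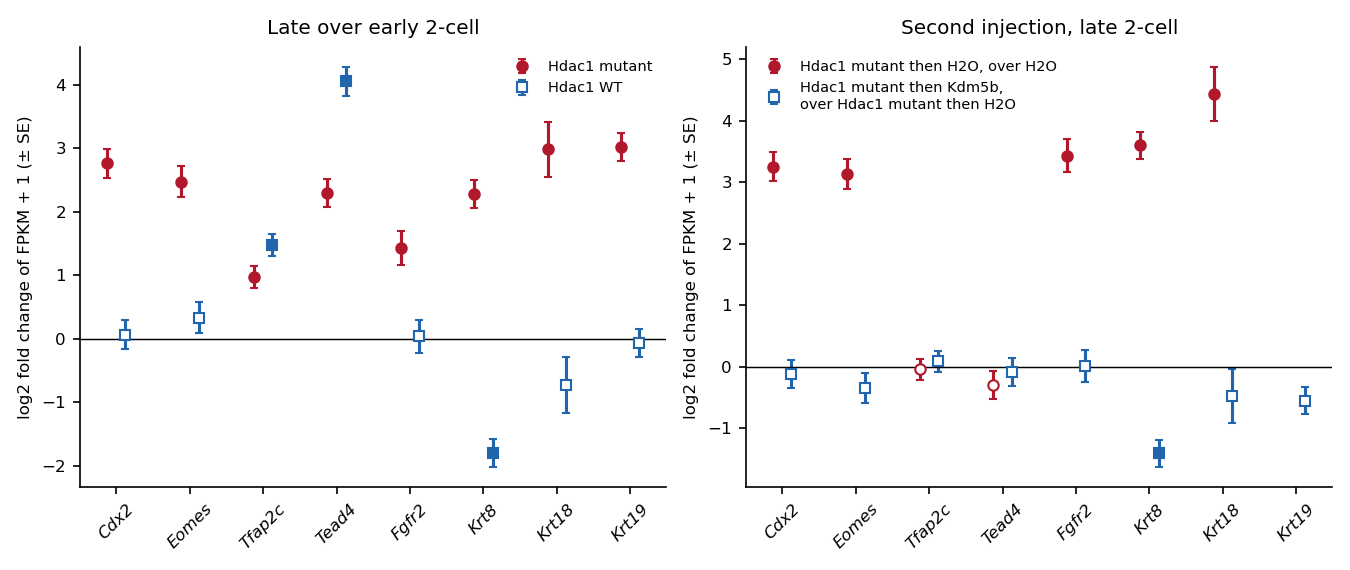
Log2 fold change of FPKM + 1 (y axis, ± SE) of the tested genes, filled where the adjusted p was under 0.05, for late over early 2-cell embryos (left, Hdac1 mutant and Hdac1 WT) and for the second injection (right). Krt8 has opposite signs in mutant and WT embryos on the left, and it alone is filled for Kdm5b on the right. Krt19 over H2O is left out because H2O embryos were listed at 0. The Krt19 symbols on the left are of a gene that passed the filter only through late perturbed groups.

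The balance of the keratin partners differed between groups. The ratio of Krt18 to Krt8 FPKM was 3.48 and 2.62 with mutant Hdac1, 3.33 and 3.76 with mutant Hdac2 and 2.74 and 2.46 with FK228. After mutant Hdac1 and Kdm5b it was 9.60 and 10.4, against 4.82 and 4.61 after mutant Hdac1 and H2O, without overlap. At the early stage it was 2.13 and 2.02 in Hdac1 mutant embryos, against 0.773 and 0.591 in Hdac1 WT embryos, the WT early libraries holding more Krt8 than Krt18. In unperturbed late libraries, where both keratins were low, it ran from 0.546 to 11.7. These ratios were not tested, and they carry the uncertainty of reads shared with keratin copies.

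**Figure D4:**
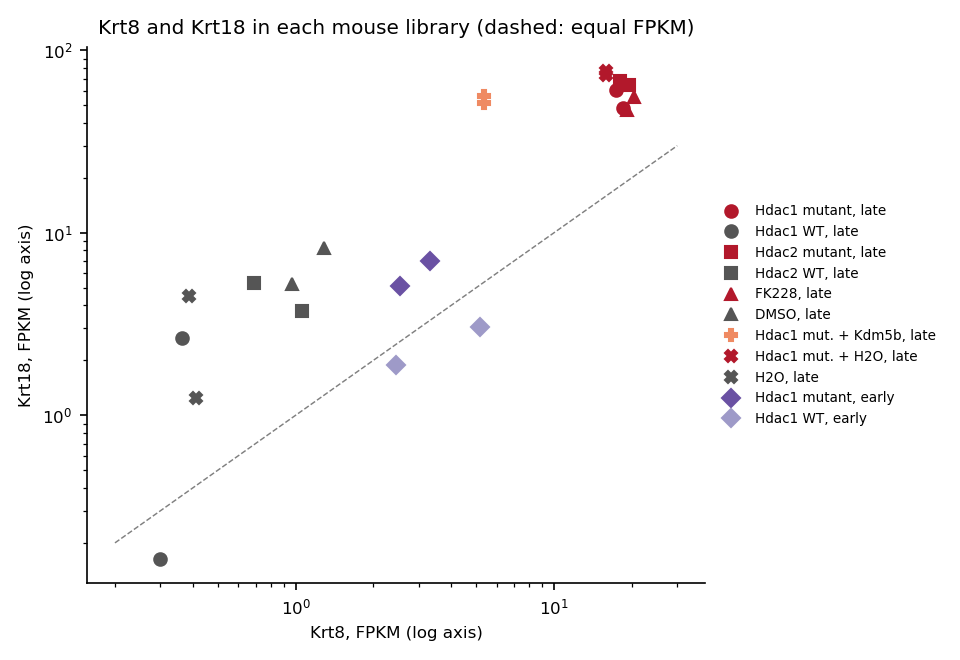
Krt18 against Krt8 FPKM (both log axes) in each of 22 mouse libraries, marked by group, with a dashed line of equal FPKM. Late libraries with mutant Hdac1, mutant Hdac2 or FK228 cluster at the upper right, the Kdm5b pair sits to their left at 5.37 and 5.38 FPKM of Krt8, and the early WT pair lies below the line.

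In cattle, FK228 embryos had more CDX2, EOMES and FGFR2 and less TFAP2C and TEAD4, and the keratins had no call. Of 8 tested members 3 were higher and 2 lower, against 22.2% and 27.4% of the 12590 bovine genes tested, with 2 residual degrees of freedom. CDX2 was at 21.8 and 17.4 FPKM in FK228 embryos and at 10.2 and 11.7 FPKM in DMSO embryos, which is 0.78 ± 0.20 higher on the log2 scale (adjusted p = 0.0117). That call was lost without replicate 1 of FK228 (0.62, adjusted p = 0.0768) or of DMSO (0.69, adjusted p = 0.0714). EOMES was at 82.4 and 77.1 FPKM in FK228, against 29.4 and 22.7 FPKM in DMSO (1.59 ± 0.18, adjusted p = 0.00026). TFAP2C was lower in FK228, at 80.1 and 48.4 FPKM against 195 and 173 FPKM (-1.55 ± 0.24, adjusted p = 0.00101). TEAD4 was lower as well, at 0.156 and 0.285 FPKM in FK228 and 3.63 and 4.03 FPKM in DMSO (-1.99 ± 0.20). It reached 1 FPKM only in DMSO and passed the filter through that group. It is therefore given without a p, and its part in the count of lower members is a description. None of these 4 genes overlapped between the groups, and over all genes 39.6% lay above and 37.5% below DMSO without overlap. FGFR2 was low, at 1.55 and 1.86 FPKM in FK228 and 0.908 and 0.579 FPKM in DMSO (0.64 ± 0.21, adjusted p = 0.035), a call lost without 3 of the 4 libraries (adjusted p 0.0529 to 0.150), with no filter (adjusted p = 0.0860), with median-ratio scaling (adjusted p = 0.05, not under it) and with quantile normalization (adjusted p = 0.0635). ELF5 was at 0.472 and 0.734 FPKM in FK228 and 0.430 and 0.261 FPKM in DMSO, and was not tested.

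The bovine keratins were low in both groups. KRT8 was at 1.64 and 2.04 FPKM in FK228, against 2.50 and 5.73 FPKM in DMSO (-0.78 ± 0.31, adjusted p = 0.0701), and KRT18 at 0.721 and 1.01 FPKM against 1.33 and 1.99 FPKM (-0.51 ± 0.22, adjusted p = 0.0889). FK228 libraries lay below DMSO libraries for both. KRT19 overlapped, at 2.17 and 6.62 FPKM in FK228 and 2.20 and 1.31 FPKM in DMSO (0.85 ± 0.39, adjusted p = 0.102), with a value of 0.22 without replicate 2 of FK228 and a call without replicate 1 (1.49, adjusted p = 0.00796). KRT8 was called lower without replicate 1 of DMSO (-1.25, adjusted p = 0.0118) and under both scalings (-0.83 with median ratios, adjusted p = 0.0398, and -0.82 with quantiles, adjusted p = 0.0439), and KRT18 under quantile normalization (-0.59, adjusted p = 0.0415). KRT8 exceeded KRT18 in every bovine library, with KRT18 to KRT8 ratios of 0.441 and 0.492 in FK228 and 0.531 and 0.348 in DMSO. The 7 bovine markers of the oocyte and early embryo summed to 862 and 922 FPKM in FK228 and to 654 and 750 FPKM in DMSO. In limma 3 of these 7 were called higher and 0 lower, against 22.2% and 27.4% of all bovine genes. The 4 markers of the 8/16-cell stage with a row summed to 670 and 632 FPKM in FK228 and to 1079 and 894 FPKM in DMSO. DUXA, ARGFX and KLF17 were lower in FK228, while ZSCAN4 was higher, at 111 and 135 FPKM in FK228 and 56.3 and 11.7 FPKM in DMSO. The 11 cumulus and granulosa markers with a row summed to 52.3 and 64.3 FPKM in FK228 and to 45.1 and 59.8 FPKM in DMSO. Of the cumulus list, the steroidogenic gene STAR was at 34.1 and 44.3 FPKM in FK228 and at 22.9 and 19.6 FPKM in DMSO. CYP11A1 went the other way, at 0.227 and 0.873 FPKM in FK228 and 6.98 and 17.2 FPKM in DMSO, as did LUM, listed at 0 in both FK228 libraries and at 1.01 and 3.36 FPKM in DMSO. CYP19A1 was at most 0.0221 FPKM in any bovine library, and the part of these cells in the results was not tested. The mouse and bovine effects of FK228 came from different stages and media and were not compared by a test.

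**Figure D5:**
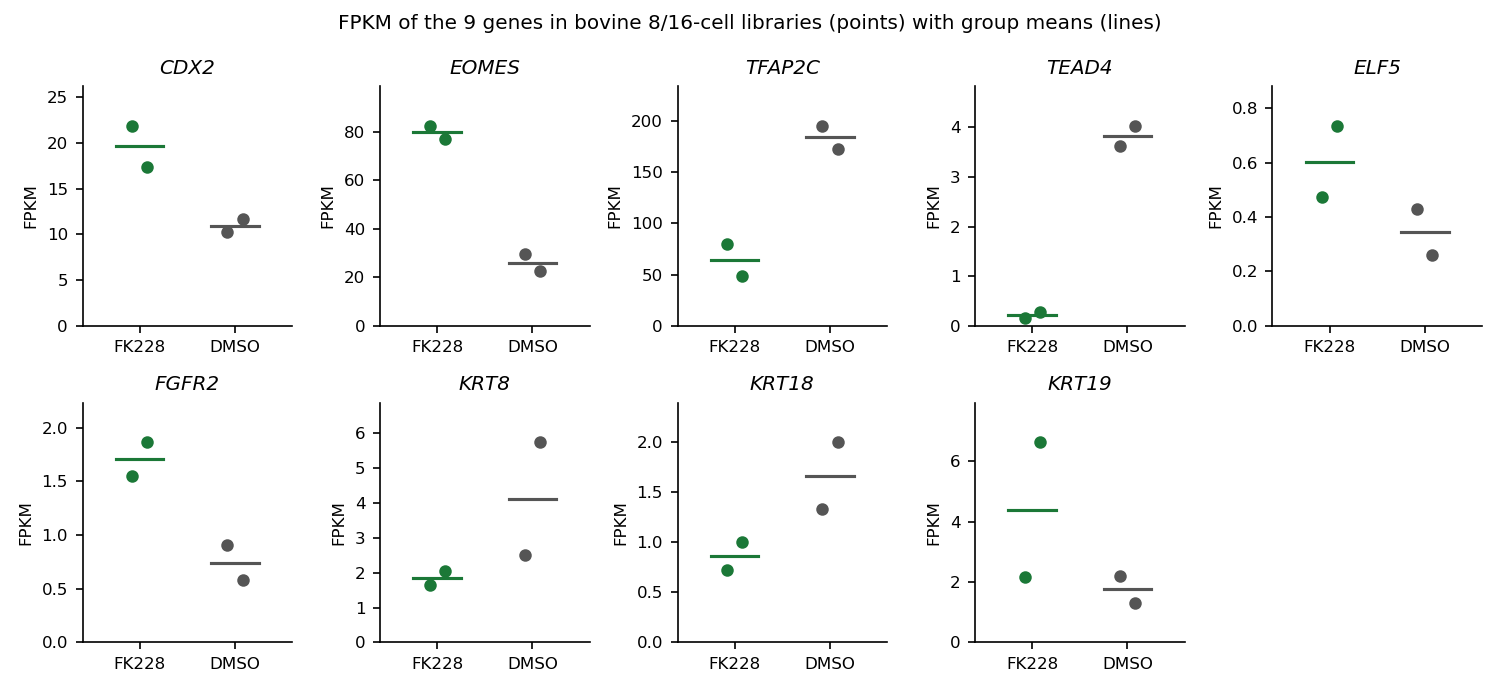
FPKM (linear y axes) of the 9 genes in the 4 bovine 8/16-cell libraries (points, 2 a group) with group means (lines). CDX2 and EOMES are higher in FK228 than in DMSO, TFAP2C and TEAD4 are lower, and KRT8 and KRT19 each have a library far from its partner.

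Over the 11 mouse group means, which share the normalization and differ in depth, the members fell into 2 patterns. On log2(FPKM + 1), Cdx2, Eomes, Fgfr2, Krt8, Krt18 and Krt19 correlated with each other with Pearson r from 0.87 to 0.98, and Tfap2c and Tead4 with r = 0.95. Between the patterns r ran from -0.17 (Krt8 and Tead4) to 0.33 (Krt19 and Tfap2c). The 11 means include the late perturbed groups, where Cdx2, Eomes, Fgfr2 and the keratins were described above as high, so their r restates that difference. Of all genes tested, 21.1% were called higher in all 3 late perturbations. Among genes with a descriptive symbol that reached a group mean of 5 FPKM, those most like a member over the 11 means were Egln3 for Cdx2 (r = 0.995), Snai2 for Eomes (0.992), Jun for Fgfr2 (0.990), Palm3 for Krt8 (0.987), Amotl2 for Krt18 (0.991) and Fxyd5 for Krt19 (0.997). Flvcr2 was most like Tead4 (0.993) and Arhgap8 most like Tfap2c (0.988).

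Other transcription factors of the trophoblast were mostly called higher as well. Of 17 tested in limma, 14 were higher and 0 lower with mutant Hdac1, 15 and 0 with mutant Hdac2, and 13 and 1 with FK228, against 30.5% to 31.0% of all genes higher and 21.6% to 26.3% lower. The median log2 fold changes of these 17 were 1.94, 2.12 and 2.63. At an unadjusted p under 0.05 the lower ones numbered 0 with mutant Hdac1 and 1 with mutant Hdac2. Gata2, which in mouse trophoblast acts beside Gata3 on placental hormone genes, was at 99.4 and 93.1 FPKM in Hdac1 mutant late embryos, against 0.891 and 1.66 FPKM in Hdac1 WT late embryos (5.44 ± 0.23, adjusted p = 6.89e-10). Dlx3, a homeobox factor of the placental labyrinth, was at 39.1 and 42.5 FPKM with mutant Hdac2, against 0.582 and 1.26 FPKM with WT Hdac2 (4.46 ± 0.20, adjusted p = 9.73e-10). Esx1, an X-linked homeobox factor of the placenta, was at 49.0 and 59.4 FPKM in FK228, against 2.28 and 0.924 FPKM in DMSO (4.45 ± 0.32, adjusted p = 1.53e-08). Hand1, needed for trophoblast giant cells, was at 23.9 and 20.8 FPKM with mutant Hdac1 and 0.837 and 1.37 FPKM with WT Hdac1 (3.48 ± 0.32, adjusted p = 3e-07). At the early stage limma called 2 of the 17 higher with mutant Hdac1 and 0 lower, and 4 and 0 had an unadjusted p under 0.05, against 0.231% and 0.329% of all genes called. In cattle 5 of 14 were higher and 4 lower, against 22.2% and 27.4% of all bovine genes. The median log2 fold change of these 14 was -0.02, against 0.06 over all bovine genes tested. ASCL2 rose there, at 20.8 and 15.6 FPKM in FK228 and 1.32 and 2.22 FPKM in DMSO (2.80 ± 0.25, adjusted p = 9.4e-05), and ESRRB fell, at 1.43 and 2.63 FPKM in FK228 and 63.3 and 47.2 FPKM in DMSO (-4.23 ± 0.25, adjusted p = 2.72e-05).

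Genes of the Hippo pathway, which sets TEAD4 activity in the embryo, had calls in both directions, as all genes did. Of 18 tested genes 8 were higher and 4 lower with mutant Hdac1, 9 and 4 with mutant Hdac2, and 8 and 5 with FK228, against 30.5% to 31.0% of all genes higher and 21.6% to 26.3% lower. The medians of these 18 were 0.55, 0.43 and 0.46 on the log2 scale. Among the higher ones with mutant Hdac1, Amotl2, an angiomotin that holds YAP in the cytoplasm, was at 16.2 and 10.5 FPKM against 0.484 and 0.762 FPKM with WT Hdac1 (3.12 ± 0.29, adjusted p = 3.36e-07), and Vgll4, a TEAD cofactor that competes with YAP, was at 31.0 and 23.6 FPKM against 4.34 and 1.39 FPKM (2.97 ± 0.28, adjusted p = 3.69e-07). Tead3, a paralog of Tead4, was higher where Tead4 was lower, at 17.0 and 17.2 FPKM in FK228 and 1.03 and 1.18 FPKM in DMSO (3.11 ± 0.20, adjusted p = 5.3e-09). Mob1a, an activator of the LATS kinases, was lower in FK228, at 7.56 and 8.46 FPKM against 40.5 and 39.0 FPKM in DMSO (-2.18 ± 0.13, adjusted p = 2.5e-09). In cattle 0 of 18 were higher and 6 lower in limma, with 1 and 7 at an unadjusted p under 0.05, against 22.2% and 27.4% of all bovine genes called. NF2, which in mouse activates the LATS kinases, was among the lower ones, at 6.71 and 10.7 FPKM in FK228 and 29.8 and 43.6 FPKM in DMSO (-1.96 ± 0.26, adjusted p = 0.000545).

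Paralogs of the members moved with them in part. Of 16 tested, 12 were higher and 1 lower with mutant Hdac1, 9 and 0 with mutant Hdac2, where 1 was lower at an unadjusted p under 0.05 in limma, and 10 and 2 with FK228. Over all genes 30.5% to 31.0% were higher and 21.6% to 26.3% lower. The medians of the 16 paralogs were 1.11, 0.82 and 0.79 on the log2 scale. Fgfr3, like Fgfr2 a receptor of FGF, was at 35.6 and 27.6 FPKM with mutant Hdac1 and 1.57 and 0.669 FPKM with WT Hdac1 (3.96 ± 0.32, adjusted p = 9.81e-08). In cattle FGFR3 was at 31.8 and 32.7 FPKM in FK228 and 2.00 and 3.53 FPKM in DMSO (3.17 ± 0.24, adjusted p = 5.16e-05). It was among 6 paralogs higher and 3 lower of 15, against 22.2% and 27.4% of all bovine genes. Elf4, a paralog of Elf5, was at 7.64 and 9.67 FPKM with mutant Hdac2, against 0.462 and 0.485 FPKM with WT Hdac2 (2.70 ± 0.21, adjusted p = 4.91e-08), while bovine ELF4 was lower, at 4.74 and 4.65 FPKM in FK228 and 15.1 and 15.9 FPKM in DMSO (-1.54 ± 0.19, adjusted p = 0.000389).

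Genes downstream of FGF receptors had calls in both directions, as all genes did. Of 20 genes, 8 were higher and 5 lower with mutant Hdac1, 4 and 7 with mutant Hdac2, and 8 and 6 with FK228, against 30.5% to 31.0% of all genes higher and 21.6% to 26.3% lower. The medians of these 20 were 0.17, 0.02 and 0.26 on the log2 scale. In cattle 7 of 18 were higher and 3 lower, against 22.2% and 27.4% of all bovine genes. Dusp6, a phosphatase that ERK signalling induces, was at 19.1 and 14.7 FPKM with mutant Hdac1, against 2.42 and 2.25 FPKM with WT Hdac1 (2.42 ± 0.24, adjusted p = 5.86e-07). Sos1, the exchange factor that activates RAS, was at 1.38 and 1.51 FPKM in FK228, against 10.6 and 13.6 FPKM in DMSO (-2.41 ± 0.24, adjusted p = 3.71e-07). Bovine SPRY2, an inhibitor of the pathway, was at 5.04 and 6.02 FPKM in FK228 and 17.3 and 16.2 FPKM in DMSO (-1.44 ± 0.20, adjusted p = 0.000572).

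Genes of epithelial junctions and transport, which the trophectoderm needs to seal and fill the cavity, were higher in mouse more often than lower. Of 23 tested, 15 were higher and 2 lower with mutant Hdac1, 16 and 3 with mutant Hdac2, and 14 and 1 with FK228, with medians of 1.08, 1.0 and 1.04 on the log2 scale. Desmoplakin (Dsp), which ties keratin filaments to desmosomes, was at 7.85 and 6.96 FPKM with mutant Hdac1, against 0.376 and 0.585 FPKM with WT Hdac1 (2.51 ± 0.20, adjusted p = 7.43e-08). Plakophilin 2 (Pkp2), another desmosome protein, was at 13.7 and 12.2 FPKM in FK228, against 0.589 and 0.399 FPKM in DMSO (3.23 ± 0.22, adjusted p = 7.96e-09), and Atp1b1, a subunit of the sodium pump, at 45.1 and 49.6 FPKM with mutant Hdac2, against 9.73 and 11.4 FPKM with WT Hdac2 (2.07 ± 0.16, adjusted p = 6.14e-08). In cattle 4 of 21 were higher and 6 lower. The water channel AQP3 was lower there, at 3.51 and 1.92 FPKM in FK228 and 11.1 and 10.7 FPKM in DMSO (-1.71 ± 0.25, adjusted p = 0.000876). Of the other keratins, 19 of 50 passed the filter in mouse, and 8, 8 and 9 of them were higher with mutant Hdac1, mutant Hdac2 and FK228 and 0 lower in limma, also 0 at an unadjusted p under 0.05. In Hdac1 WT embryos, late against early, 0 of these 19 were higher and 9 lower in limma, also at an unadjusted p under 0.05, against 28.8% and 28.1% of all genes. Of 5 tested cumulus and granulosa markers, 0 were called higher and 4 lower in the same comparison, and the part of such cells was not tested. In cattle 3 of 48 other keratins passed the filter, with 1 called higher and 1 lower in limma and a median log2 fold change of 1.05. At an unadjusted p under 0.05 these were 2 higher and 1 lower. The lower one was KRT5, the basal keratin, at 5.28 and 2.11 FPKM in FK228 and 14.3 and 8.66 FPKM in DMSO (-1.46 ± 0.36, adjusted p = 0.0101). The background of these lists is that of the members, with 30.5% to 31.0% of all mouse genes tested higher and 21.6% to 26.3% lower in the 3 late perturbations, and with 22.2% of all bovine genes higher and 27.4% lower in FK228. Like the members, the lists were chosen with earlier results of these data known, so their counts are descriptions.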

How the data were processed

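PolyA RNA of whole embryos was selected on oligo(dT) beads and made into libraries with NEBNext Ultra kits, which are not described as marking strand, per the labels' protocols. The values are FPKM per gene as deposited by the authors. The submitters' processing notes name Trimmomatic, HISAT2, featureCounts and Cufflinks, with no versions or roles, and the builds GRCm38 and ARS-UCD1.2. FPKM are not counts and the depth of each library is unknown; its relative depth was estimated from the steps of low values. The 9 genes and the other gene lists were chosen with earlier results of these data known.

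From these values log2(FPKM + 1) was fitted in limma 3.58.1 (R 4.3.3) with a mean per group and a trended empirical Bayes variance. All 22 mouse libraries entered one fit (11 residual degrees of freedom) and the 4 bovine libraries another (2). Genes with at least 1 FPKM in at least 2 libraries of a species were tested, 17336 of 27988 in mouse and 12590 of 21577 in cattle. P-values were adjusted by Benjamini-Hochberg over all genes tested, separately for each of 11 comparisons of 2 groups and 3 differences between comparisons, and called under 0.05. The fit was tested on simulated data. All 9 members were described, and genes outside them were named by size of change, up to 4 a list, among calls without overlap between groups and a group mean of at least 5 FPKM. Alternatives were a pseudocount of 0.1, no filter, median-ratio scaling, quantile normalization, only the groups compared, the replicate number as a block, and each library left out. Tables used Python 3.11.15 with pandas 2.3.3, and plots matplotlib 3.10.9. Promoters came from RefSeq (GRCm38.p6), and gene positions from GENCODE M21.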

Additional observations from a re-analysis of the deposited data

Results flagged for a closer look

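The effect of mutant Hdac1 over WT differed between the late and the early 2-cell stage for 7 members in the test of that difference in limma. Late minus early, it was 2.70 for Cdx2, 2.15 for Eomes, 1.39 for Fgfr2, 4.08 for Krt8, 3.71 for Krt18 and -1.76 for Tead4 on the log2(FPKM + 1) scale. For Krt19 it was 3.09 on that scale, which is no fold because Hdac1 WT late embryos were listed at 0, and Krt19 passed the filter only through late perturbed groups. The Krt18 value ran from 2.89 to 4.54 when each library was left out in turn.

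The effects of mutant Hdac1 and FK228 differed for Cdx2, by 1.25 on the log2 scale, a call that most left-out libraries ended.

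In FK228, Krt8 and Krt18 were above DMSO in both mouse libraries and below DMSO in both bovine libraries. The FK228 effect in mouse minus that in cattle was 4.07 for Krt8 and 3.29 for Krt18 on the log2 scale. This difference was not tested, and species, stage and medium cannot be told apart. Every group had 2 libraries, too few to look for a library far from its group.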

How the results depend on the processing

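Of 1208 values of single members under alternative settings, 1119 kept their direction and side of the threshold, 41 had the other sign with no call in either setting, 15 gained and 33 lost a call, and 0 called values changed sign. The 6 higher and 1 lower members with mutant Hdac1 at the late stage, and those with FK228, kept their counts under each alternative except that quantile normalization added Tfap2c to the higher ones in FK228. With a pseudocount of 0.1 the members called lower with mutant Hdac2 numbered 0, those higher with mutant Hdac1 at the early stage 2, those lower with Kdm5b 0 and those differing between mutant Hdac1 and FK228 0. With only the compared groups fitted, which leaves fewer residual degrees of freedom, the same 4 counts and that of Hdac2 WT over H2O were each 0. Quantile normalization called 4 bovine members lower. Leaving out each library gave 0 to 2 members lower with mutant Hdac2, 0 to 1 higher with mutant Hdac1 at the early stage, 1 to 2 lower from early to late in Hdac1 WT, 0 to 1 higher and 0 to 1 lower for Hdac1 WT over H2O, 0 to 1 higher for Hdac2 WT over H2O, 0 to 1 lower with Kdm5b and 0 to 1 for mutant Hdac1 over FK228.

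Over all genes, fitting only the compared groups gave 5304 calls with mutant Hdac1 at the late stage, against 9027, and 0 calls at the early stage, for either WT over H2O, for Kdm5b and for mutant Hdac1 minus Hdac2, against 97, 379, 1638, 181 and 18, and 6 for mutant Hdac1 minus FK228, against 1208. A pseudocount of 0.1 gave 300 calls at the early stage, 12 for Kdm5b, 7 for mutant Hdac1 minus Hdac2 and 759 for mutant Hdac1 minus FK228. Quantile normalization gave 144 for Hdac1 WT over H2O and 108 for Kdm5b, median ratios 84 for Kdm5b, and no filter 31 for mutant Hdac1 minus Hdac2. With single libraries left out, calls numbered 27 to 98 at the early stage, 179 to 726 and 764 to 1467 for Hdac1 WT and Hdac2 WT over H2O, 12 to 131 for Kdm5b, 11 to 88 for mutant Hdac1 minus Hdac2 and 442 to 1374 for mutant Hdac1 minus FK228.

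The labels do not say that replicate numbers pair libraries, and same-numbered mouse libraries deviated together with r from -0.089 to 0.175 over 55 pairs of groups, 3 of them over 0.1. With the replicate block, bovine KRT8 was called lower (-0.78, adjusted p = 0.0138) and KRT19 higher (0.85, adjusted p = 0.0357), where r was 0.233 between the 2 groups, and no other member's call changed. With 2 libraries a group and unknown depth, a member without a call is not shown to be the same in both groups, and values under 1 FPKM, among them Elf5 and most control values of Krt19, rest on few fragments. Other causes of the changes between settings were not tested.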
